A study of Mus musculus with 27 samples.

Results

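Keratins 8, 18 and 20 and claudins 6 and 7 are structural proteins of epithelia, and their transcripts were followed in murine neural crest explants cultured with or without retinoic acid (RA). The set held every probe set annotated to Krt8, Krt18, Krt20, Cldn6 or Cldn7, which gave 6 probe sets of 12422 tested and 5 genes of 8251 named on the array. Krt18 had 2 probe sets and each of the other genes had 1. The dorsal neural tube of each embryo was divided at the midline, with one side kept as control and the other exposed to RA, the active form of vitamin A, at 1e-06 M in ethanol. Total RNA was hybridised to Affymetrix MG_U74Av2 arrays, with 3 arrays of each arm after 6 h, 3 of each after 12 h, 4 of each after 24 h, and 4 controls beside 3 RA arrays after 48 h. For the 6 h exposure, an overnight culture on fibronectin in DMEM with 10% horse serum came before RA was added. The times compared here are the labelled hours of exposure, so the 6 h explants had been in culture for longer than 6 h. The number of embryos behind an array, their strain and their age are not given in the sources used here. Values are log2 of the deposited normalised intensities, and the threshold was an adjusted p of 0.05, computed over all 12422 probe sets.

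Keratins form the intermediate filaments of epithelial cells, in which a type II chain such as keratin 8 pairs with a type I chain such as keratin 18 or 20. Claudins span the membrane at tight junctions, where they seal the space between neighbouring cells. Neural crest cells leave the dorsal neural tube, an epithelium, and lose such junctions as they become migratory.

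The labels were checked with Cyp26a1 and Dhrs3, a hydroxylase and a reductase that lower RA levels and are known RA targets. Cyp26a1 read 4.36 to 4.92 on the 14 control arrays and 5.63 to 7.71 on the 13 RA arrays. Dhrs3 read 5.59 to 6.73 on controls and 7.36 to 8.94 with RA. The third 48 h control is described elsewhere in its label as RA treated, but it read 4.92 for Cyp26a1, the highest of the controls, and 6.27 for Dhrs3, both below every RA array, and it was kept as a control. Of 13 measured neural crest markers, Foxd3 was under the 25th percentile of its array on 23 of 27 arrays and Ednrb on 27, while Sox10, Snai2 and Twist1 lay above it on every array. All 11 measured neural tube markers, Sox2 and Pax6 among them, also lay above it on every array. Some endoderm markers did so too, such as Foxa2, Sox17 and Afp. Others did not: Foxa3, Apob, Cer1, Cdx2 and Spink1 lay below it on all 27 arrays and Foxa1 on 21. This level alone thus does not show which cells were present. Scanner records gave 9 scan days, numbered here in order of time, and 7 chip lots. The 6 h arrays were scanned on days 7 and 8, the 12 h arrays on days 5 and 6, the 24 h arrays on days 3, 5 and 6, and the 48 h arrays on days 1, 2, 4 and 9. The 12 and 24 h arrays thus shared days 5 and 6, while day 3 held only 24 h arrays, 1 of each arm. The change from 6 to 12 h and from 24 to 48 h cannot be told apart from scan day. Where both arms of a time had consecutive numbers on the same day, the arrays are called a record pair. There were 13 of these, and 48 h control 2 stood alone. Separate cultures for the replicates are not stated in the labels, so the p values reflect only how these arrays varied, which may be technical.

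**Figure D1:**
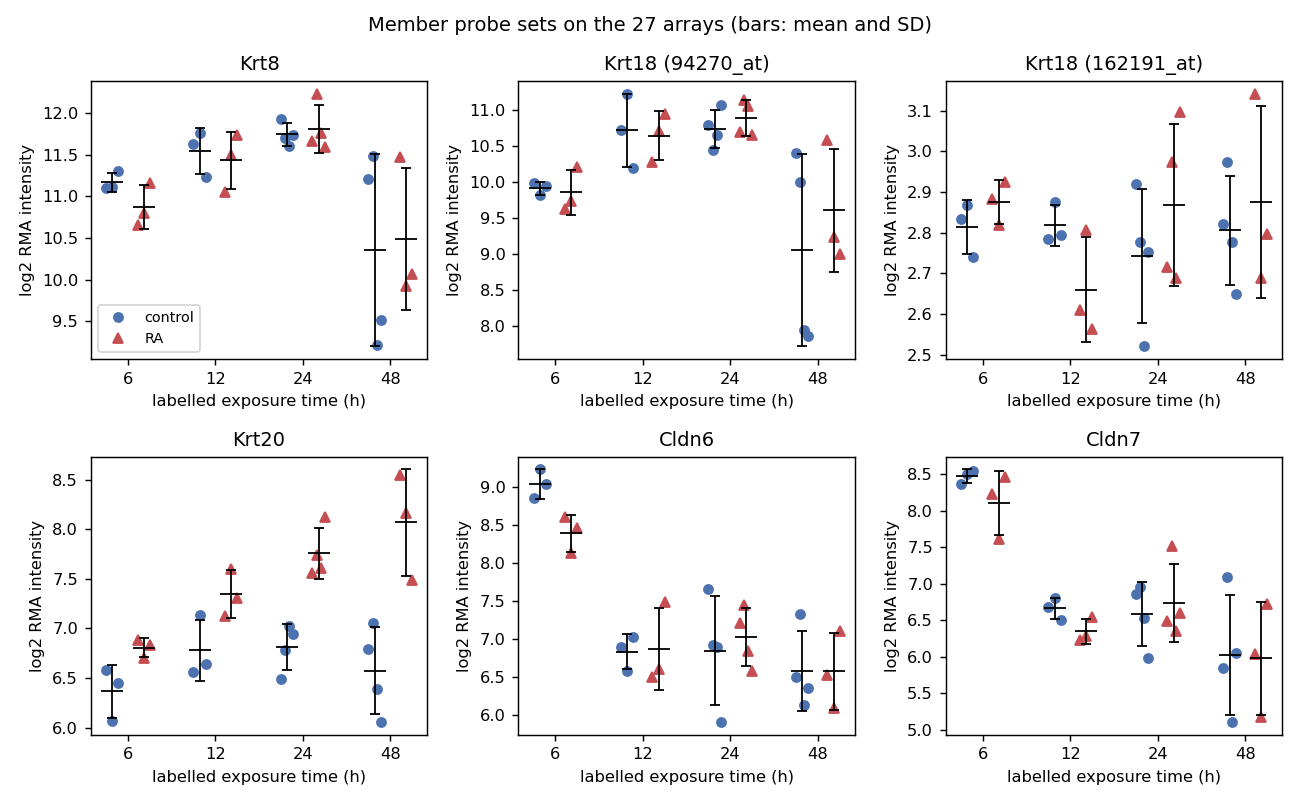
Log2 RMA intensity (y axis) of the 6 member probe sets on each of the 27 arrays against labelled exposure time (x axis), with circles for controls, triangles for RA, and black bars for the group mean and SD. Cldn6 and Cldn7 lie highest at 6 h, Krt20 lies higher with RA, and the 48 h arrays of Krt8 and Krt18 (94270_at) spread over more than the arrays of any other time.

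Krt8 and Krt18 encode the keratin pair of simple epithelia and are neighbours on chromosome 15. RefSeq promoter windows of 300 bases (250 before to 50 after the annotated start, build GRCm38.p6) were matched by symbol for all 5 genes, with 2 windows for Cldn7. The windows of the 3 keratin genes are printed because Krt8 and Krt18 moved together and Krt20 was the member that rose with RA. Capitals mark TATAAA, searched on the given strand, and AGGTCA, the half-site of retinoid receptors, searched on both strands; the motifs do not overlap in these windows. Krt8 lies at chr15:102004293-102004592 on the minus strand, Krt18 at chr15:102027966-102028265 on the plus strand and Krt20 at chr11:99438104-99438403 on the minus strand.
Krt8: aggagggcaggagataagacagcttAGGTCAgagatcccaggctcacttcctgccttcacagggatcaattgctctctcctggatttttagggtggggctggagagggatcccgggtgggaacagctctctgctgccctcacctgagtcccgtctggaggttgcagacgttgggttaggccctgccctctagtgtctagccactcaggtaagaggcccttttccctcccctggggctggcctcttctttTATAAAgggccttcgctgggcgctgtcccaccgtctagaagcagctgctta
Krt18: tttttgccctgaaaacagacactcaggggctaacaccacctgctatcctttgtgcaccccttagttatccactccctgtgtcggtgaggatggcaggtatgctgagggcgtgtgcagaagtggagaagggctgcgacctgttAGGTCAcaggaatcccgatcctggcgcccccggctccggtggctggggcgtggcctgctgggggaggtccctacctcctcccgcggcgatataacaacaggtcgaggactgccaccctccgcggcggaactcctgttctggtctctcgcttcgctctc
Krt20: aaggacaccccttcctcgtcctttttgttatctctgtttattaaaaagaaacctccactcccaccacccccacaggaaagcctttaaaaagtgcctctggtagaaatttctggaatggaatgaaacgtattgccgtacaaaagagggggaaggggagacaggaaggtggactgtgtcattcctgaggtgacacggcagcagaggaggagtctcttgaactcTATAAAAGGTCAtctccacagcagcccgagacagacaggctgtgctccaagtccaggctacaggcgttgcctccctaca
The first base of AGGTCA stood 225 bases before the start in Krt8, 108 in Krt18 and 23 in Krt20. TATAAA began 1 base before the annotated start in Krt8 and 29 bases before it in Krt20, directly followed there by AGGTCA, and was not in the Krt18 window. The Cldn6 window held neither motif, and each Cldn7 window held AGGTCA or its reverse complement once, 40 and 31 bases before the start. Among all 32851 promoter windows of this length, 8.32% held TATAAA and 16.3% held AGGTCA, and these matches describe letters only.

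Krt8 (101009_at) was among the brightest transcripts at every time, between the 87.9th and the 99.4th percentile of its array. At 6 h the controls read 11.10, 11.11 and 11.30 and the RA arrays 10.65, 10.79 and 11.16. At 12 h the controls read 11.62, 11.76 and 11.23 and the RA arrays 11.06, 11.50 and 11.74. These groups overlapped at both times, with values near 11 throughout. At 24 h the controls read 11.93, 11.71, 11.60 and 11.74 and the RA arrays 11.66, 12.23, 11.76 and 11.59. At 48 h the controls read 11.21, 11.49, 9.21 and 9.51 and the RA arrays 11.47, 9.92 and 10.06. At 48 h the arrays of both arms therefore fell into a high set, the first and second controls and the first RA array, and a low set of the other 4. The 8 group means, in rising order, were 10.36 for 48 h controls, 10.48 for 48 h RA, 10.87 for 6 h RA, 11.17 for 6 h controls, 11.43 for 12 h RA, 11.54 for 12 h controls, 11.75 for 24 h controls and 11.81 for 24 h RA. No neighbours in this order differed by more than the pooled SD within groups of 0.58.

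Krt18 (94270_at) followed the same course. At 6 h the controls read 9.98, 9.81 and 9.94 and the RA arrays 9.63, 9.73 and 10.21, and at 12 h the controls read 10.72, 11.22 and 10.20 and the RA arrays 10.27, 10.71 and 10.94. At 24 h the controls read 10.78, 10.45, 10.65 and 11.07 and the RA arrays 10.70, 11.14, 11.06 and 10.66. Control and RA arrays overlapped at each of these times. After 48 h the controls read 10.41, 10.00, 7.95 and 7.86 and the RA arrays 10.59, 9.24 and 8.99, with the same arrays high and low as for Krt8. Over the 27 arrays the 2 transcripts had a Pearson r of 0.96, and 0.94 after group means were removed, over arrays that share scan days and chip lots. The second Krt18 probe set (162191_at) read 2.52 to 3.14 and lay below the 25th percentile on all 27 arrays. Its correlation with the first was 0.15, and 0.45 with group means removed, which at such dim values does not show whether the 2 probe sets follow each other. Results for Krt18 below are those of 94270_at.

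Neither keratin of this pair passed in an RA comparison. RA minus control for Krt8, in order of time, was -0.30 (SE 0.43), -0.11 (0.43), 0.06 (0.37) and 0.13 (0.40), each with an adjusted p of 1 by limma. For Krt18 the values were -0.05 (SE 0.49), -0.07 (0.49), 0.15 (0.42) and 0.55 (0.46), again with an adjusted p of 1. The 95% interval at 48 h ran from -0.71 to 0.96 for Krt8 and from -0.39 to 1.5 for Krt18, so differences of about that size are not shown to be absent. Within the record pairs Krt8 was lower with RA in 3 of 3 pairs at 6 h and higher in 3 of 3 at 48 h, by 0.26, 0.55 and 0.71. The test of that difference between times gave 0.43 (SE 0.59, adjusted p of 1). Krt18 was higher with RA in 3 of 3 pairs at 48 h, by 0.18, 1.13 and 1.29. How many of all probe sets lean one way in 3 of 3 pairs is not given here, so these counts are a description only. The fitted differences above did not use these pairs. They include 48 h control 2, which has no record pair and belonged to the high set of both keratins.

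Over time, Krt18 varied among the controls (moderated F-test, adjusted p = 0.0231), and Krt8 did not pass (0.0505). In all, 3 of the 6 member probe sets passed in controls, against 12.9% of all probe sets, and 3 passed in RA-treated explants, against 15.2%. From 24 to 48 h Krt8 differed by -1.39 (SE 0.37, adjusted p = 0.074) in controls and by -1.33 (SE 0.40, adjusted p = 0.156) with RA. Krt18 differed by -1.68 (SE 0.42, adjusted p = 0.0523) in controls and by -1.28 (SE 0.46, adjusted p = 0.244) with RA. Some alternatives called these falls. In controls Krt18 passed without the dimmest 30% of probe sets (adjusted p = 0.0427) and with an intensity trend (0.0498), and both keratins passed without 48 h control 1 (0.0263 for Krt8 and 0.00612 for Krt18), 48 h control 2 (0.0168 and 0.025) or 48 h RA 1 (0.0388 and 0.0342). Without 48 h RA 2 or 48 h RA 3 Krt18 passed in controls too (0.0475 and 0.0495). In the RA arm both passed with 48 h control 3 grouped as RA (0.0199 and 0.0449), and Krt8 passed without 48 h RA 1 (0.0297). From 6 to 12 h Krt18 differed by 0.80 (SE 0.49) in controls and 0.79 (SE 0.49) with RA, with limma adjusted p values of 0.448 and 0.356. These became 0.0319 and 0.0309 with only the 6 h and 12 h arrays of the arm in the fit. The Krt18 call in controls was lost without 48 h control 3 (adjusted p = 0.0828) or 48 h control 4 (0.0827), the 2 low controls. It was also lost with scan day as a random block (adjusted p = 0.0671), with the controls alone in the fit (0.0774) and with 48 h control 3 grouped as RA (0.142). Krt8 passed in controls under some of the other settings, such as cyclic loess (adjusted p = 0.0483) or without 48 h control 2 (0.00667). With the RA-treated arrays alone in the fit both passed in that arm, Krt8 with an adjusted p of 0.0429 and Krt18 with 0.0358. In bulk RNA of this kind, fewer cells that carry a transcript and less of it per cell cannot be told apart.

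The spread at 48 h followed the scan day. Arrays scanned on days 1 and 2 read 11.21 to 11.49 for Krt8, and those of days 4 and 9 read 9.21 to 10.06. With terms for RA and scan day fitted to the 7 arrays of 48 h, which leaves 2 residual degrees of freedom, Krt8 was lower on day 4 than on day 1 by 3.41-fold (log2 difference -1.77, SE 0.15, adjusted p = 6.18e-06). On day 9 it was lower than on day 1 by 2.93-fold (-1.55, SE 0.15, adjusted p = 2.38e-05). Krt18 was lower by 3.74-fold on day 4 (-1.90, SE 0.21, adjusted p = 3.1e-05) and by 4.19-fold on day 9 (-2.07, SE 0.21, adjusted p = 3.54e-05). Between days 1 and 2 Krt8 differed by 0.41 (SE 0.19, adjusted p = 0.274) and Krt18 by -0.06 (SE 0.27, adjusted p = 0.936). The F-test over scan days passed for 5 of the 6 member probe sets, against 47.0% of all probe sets, so a passing member is not unusual in this comparison. Both arrays of 24 h scanned on day 3 came from the same chip lot as the day 4 arrays. They read 11.71 and 12.23 for Krt8, and the day 4 arrays read 9.21 and 9.92. These arrays also differ in exposure time and scan day, so the part of the chip lot was not tested. Each scan day of the 48 h arrays had a chip lot of its own. Scan day, chip lot, culture batch and embryos cannot be told apart among these arrays.

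Krt7 and Krt19, further keratins of simple epithelia and of mesothelium, also differed between these days. Krt7 read 9.42, 9.0, 7.60 and 7.32 on the 48 h controls and 9.46, 8.62 and 8.16 on the RA arrays. It was lower on day 4 than on day 1 (log2 difference -1.33, SE 0.19, adjusted p = 0.000215) and lower on day 9 (-1.70, SE 0.19, adjusted p = 8.88e-05). Krt19 was lower on both days (-0.88, SE 0.18, adjusted p = 0.00176, and -0.71, SE 0.18, adjusted p = 0.00975). F11r, a junctional adhesion molecule, was lower as well (-1.5, SE 0.15, adjusted p = 1.49e-05, and -1.04, SE 0.15, adjusted p = 0.000318), whereas Tjp1, the tight junction scaffold ZO-1, was higher on day 4 by 1.13 (SE 0.14, adjusted p = 6.45e-05). Of 27 other keratins 8 passed the F-test over scan days (14 where any probe set of a gene counted), of 27 further junction genes 16, and of 10 surface ectoderm markers 1. Mesothelium markers, of which 4 of 6 passed, did not move one way: Krt7 and Krt19 were lower on days 4 and 9 than on day 1, whereas Bnc1, below the 25th percentile on 26 of 27 arrays, was higher on day 4 (0.58, SE 0.14, adjusted p = 0.0058) and on day 9 (0.62, SE 0.14, adjusted p = 0.00588). Upk3b was the other that passed, and Wt1 was below the 25th percentile on all 27 arrays. The 6 markers summed to 2623 and 2745 intensity units on day 1, 2406 on day 2, 1113 and 1848 on day 4, and 1398 and 1611 on day 9. Krt7 and Krt19 make up most of that sum. Endothelium markers, of which 5 of 8 passed, summed to 1793 and 1836 on day 1, 1411 on day 2, 1227 and 1223 on day 4, and 1080 and 1037 on day 9. Of these, Eng was lower than on day 1 on day 4 (-1.03, SE 0.13, adjusted p = 9.3e-05) and day 9 (-1.22, SE 0.13, adjusted p = 6.16e-05), as was Cldn5 (-1.07, SE 0.20, adjusted p = 0.00108, and -1.53, SE 0.20, adjusted p = 0.000187). Flt1 and Pecam1 were higher on day 4, by 0.45 and 0.39. The part of mesothelial or endothelial cells in the keratin levels was not tested. Surface ectoderm markers summed to 914 to 991 over the 48 h controls and to 871 to 1416 over the RA arrays, and endoderm markers to 755 to 914 and 810 to 818.

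**Figure D2:**
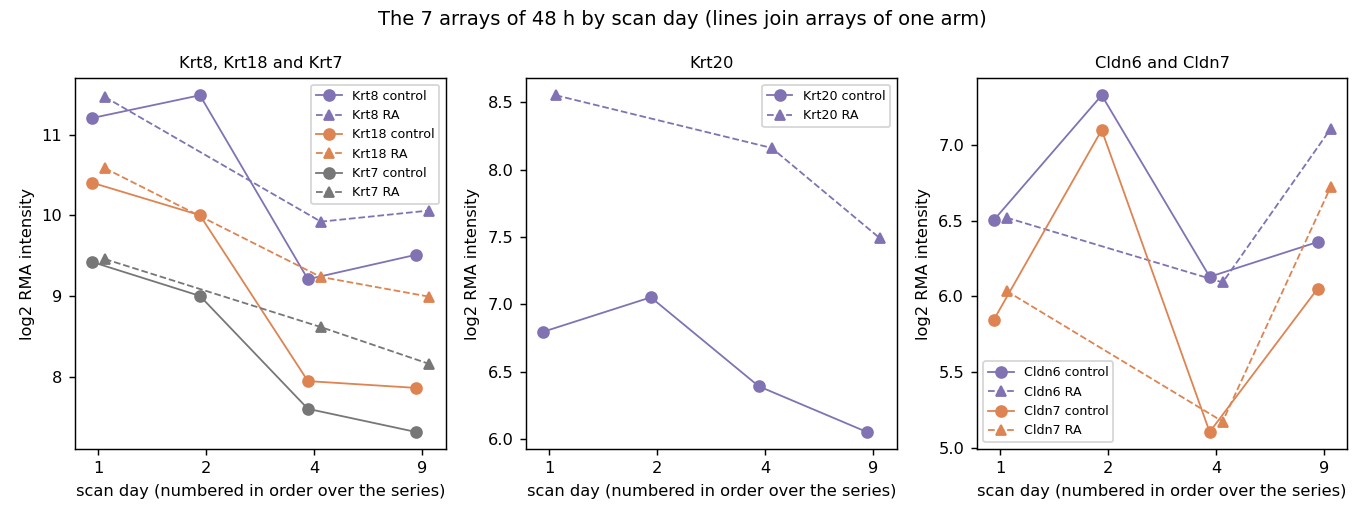
Log2 RMA intensity (y axis) of the 7 arrays of 48 h by scan day (x axis), for Krt8, Krt18 (94270_at) and Krt7 on the left, Krt20 in the middle, and Cldn6 and Cldn7 on the right, with circles and solid lines for controls and triangles and dashed lines for RA. The 3 keratins on the left are lower on days 4 and 9 than on day 1 in both arms, and than on day 2 in controls, the arm scanned that day, Krt20 keeps RA above control on each day with both arms, and the claudins are lowest on day 4.

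Krt20 (95621_at), a type I keratin of intestinal epithelium, urothelium and Merkel cells, was the member that rose with RA. At 6 h the controls read 6.58, 6.06 and 6.45 and the RA arrays 6.88, 6.70 and 6.84. At 12 h the controls read 6.56, 7.13 and 6.65 and the RA arrays 7.13, 7.60 and 7.31. The arms did not overlap at 6 h, and at 12 h the lowest RA array lay just under the highest control. At 24 h the controls read 6.49, 6.78, 7.02 and 6.95 and the RA arrays 7.56, 7.74, 7.61 and 8.13. After 48 h the controls read 6.80, 7.05, 6.39 and 6.05 and the RA arrays 8.55, 8.16 and 7.49. All RA arrays lay above all controls at both later times. The share of all probe sets whose arms separate in this way is not given here, so the separation is a description only.

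RA minus control for Krt20 was 0.44 (SE 0.25, adjusted p of 1) at 6 h, 0.57 (SE 0.25, adjusted p of 1) at 12 h and 0.95 (SE 0.21, adjusted p = 0.105) at 24 h. At 48 h Krt20 rose by 1.49 (SE 0.23, adjusted p = 0.00131 by limma), a 2.81-fold difference with a 95% interval of 1.02 to 1.97 log2. It was the 1 member probe set of 6 that passed at 48 h, where 0.274% of all probe sets passed and 0.233% were higher. No member passed at 6 h or 12 h, where 0.0242% of all probe sets did at each time, or at 24 h (0.153%), and the unadjusted p was below 0.05 for 0 members at 6 h and for Krt20 alone at 12 and 24 h. Averaged over the 4 times Krt20 rose by 0.86 (SE 0.12, adjusted p = 9.18e-05), again the 1 member of 6 that passed, against 0.564% of all probe sets. It was higher with RA in 13 of 13 record pairs, by 0.30 to 0.64 after 6 h, 0.47 to 0.66 after 12 h, 0.58 to 1.18 after 24 h and 1.44 to 1.77 after 48 h. How many of all probe sets lean one way in every pair is not given here, so this count is a description only.

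At 24 h, where equal replicate numbers behaved as pairs, the Krt20 difference of 0.95 passed with the replicate number as a block (adjusted p = 0.00237), and blocks for scan day (0.00163) and record pair (4.96e-05) gave a call too. At 48 h, with the third control grouped with RA as its description has it, the difference was 1.01 and did not pass (adjusted p = 0.314); fitted to the 48 h arrays alone it was 1.49 with an adjusted p of 0.665. The difference between times, from 0.44 at 6 h to 1.49 at 48 h, had an adjusted p of 1 by F-test (0.0161% of all probe sets passed), 0.156 with scan day as a block and 0.00975 with record pair as a block. Over time Krt20 rose in RA-treated explants (F-test, adjusted p = 0.004), from a mean of 6.81 ± 0.09 (SD, n = 3) at 6 h to 8.07 ± 0.54 (SD, n = 3) at 48 h, a log2 difference of 1.26 (SE 0.25, adjusted p = 0.00136). With 48 h control 3 grouped as RA this rise was not called either (F-test, adjusted p = 0.114). In controls the group means were 6.37, 6.78, 6.81 and 6.57 (adjusted p = 0.446). Among the 48 h arrays Krt20 was lower than on day 1 on day 9 (-0.90, SE 0.14, adjusted p = 0.000632) and on day 4 (-0.40, SE 0.14, adjusted p = 0.0433).

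Krt20 was the only keratin of those measured that passed in an RA comparison by this fit. Of 27 other keratins 0 passed at any time by limma, with 1 at an unadjusted p below 0.05 at 12 h and 0 at 6, 24 and 48 h. The largest difference at 48 h was that of Krt7, 0.41 (SE 0.36, adjusted p of 1). Of 27 further junction and adhesion genes 0 passed, with 1, 2, 1 and 3 at an unadjusted p below 0.05 at 6, 12, 24 and 48 h. At 48 h the largest difference among these was that of Perp, a desmosome-associated membrane protein, at 0.77 (SE 0.37, adjusted p of 1). The median difference at 48 h was 0.01 over the other keratins, 0.04 over the junction genes and 0.00 over all genes. Of 6 mesothelium, 10 surface ectoderm and 16 endoderm markers 0 passed in an RA comparison, with 1, 1 and 0 at an unadjusted p below 0.05 at 48 h. Of 8 endothelium and 13 neural crest markers 0 passed as well, with 0 of each at an unadjusted p below 0.05 at 48 h. Of 11 neural tube markers 1 passed, Fabp7, which fell at 24 h (-1.26, SE 0.23, adjusted p = 0.0148) and over the mean of the 4 times (-0.76, SE 0.13, adjusted p = 0.00154). At 12 h 5 of the 11 had an unadjusted p below 0.05, beside 309 of all 12422 probe sets. The list median there was -0.48 against 0.00 over all genes, although the group means of Nes and Sox1 were slightly higher with RA. At 48 h 2 of the 11 did, beside 425 of all probe sets, with Sox2 at -0.98 (SE 0.39, adjusted p of 1). The part of neural tube cell numbers in the Krt20 difference was not tested.

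**Figure D3:**
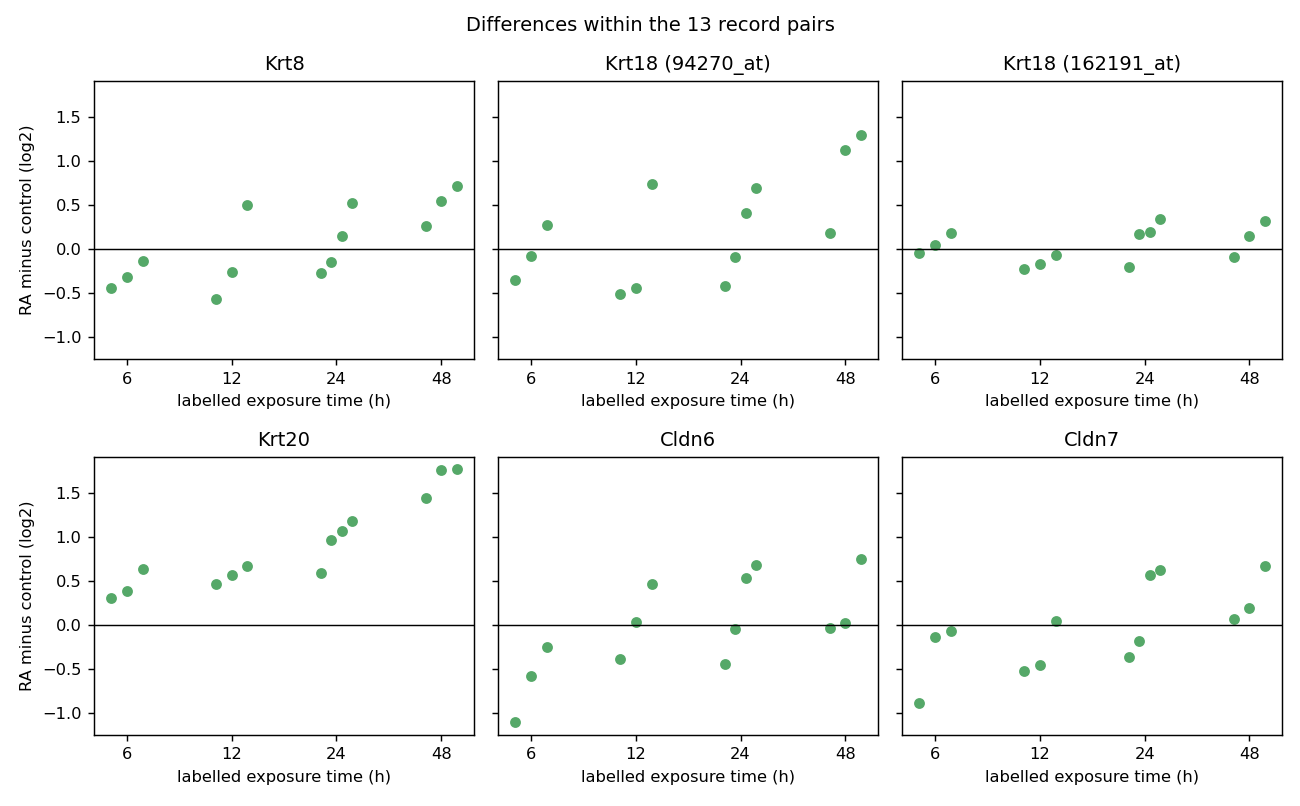
RA minus control in log2 units (y axis) within each of the 13 record pairs by labelled exposure time (x axis), 1 panel for each member probe set and points within a time placed by size. All 13 differences of Krt20 lie above 0, while those of the other probe sets lie on both sides of it.

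Cldn6 (93703_at), a claudin of embryonic epithelia, fell between 6 and 12 h in both arms. At 6 h the controls read 8.85, 9.23 and 9.04 and the RA arrays 8.60, 8.13 and 8.46. At 12 h the controls read 6.89, 6.58 and 7.02 and the RA arrays 6.50, 6.61 and 7.49. Every 6 h array lay above every later one, including those of 24 h, with controls at 7.66, 6.92, 6.90 and 5.91 and RA arrays at 7.21, 7.45, 6.85 and 6.59. At 48 h the controls read 6.50, 7.33, 6.13 and 6.36 and the RA arrays 6.52, 6.09 and 7.11. From 6 to 12 h Cldn6 fell 4.62-fold in controls (log2 difference -2.21, SE 0.35, adjusted p = 0.00067) and 2.88-fold with RA (-1.53, SE 0.35, adjusted p = 0.00672). From 12 to 24 h it differed by 0.01 (SE 0.33) in controls and 0.16 (SE 0.33) with RA, and from 24 to 48 h by -0.27 (SE 0.31) and -0.45 (SE 0.33), with adjusted p values of 0.632 to 0.994.

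Cldn7 (99561_f_at), a claudin found widely in epithelia, had a similar course, although its type of probe set can share signal with related genes, which was not tested. At 6 h the controls read 8.36, 8.51 and 8.54 and the RA arrays 8.23, 7.61 and 8.47. At 12 h the controls read 6.68, 6.80 and 6.51 and the RA arrays 6.22, 6.28 and 6.55. Again the lowest 6 h array, the second with RA, lay above all later arrays, and the highest of those was the second RA array of 24 h. How many of all probe sets separate like this is not given here for either claudin. At 24 h the controls read 6.86, 6.95, 6.54 and 5.98 and the RA arrays 6.48, 7.52, 6.35 and 6.60. After 48 h the controls read 5.84, 7.10, 5.11 and 6.05 and the RA arrays 6.04, 5.17 and 6.72. The fall from 6 to 12 h was 3.5-fold in controls (-1.81, SE 0.39, adjusted p = 0.00702) and 3.37-fold with RA (-1.75, SE 0.39, adjusted p = 0.00529). Over the 27 arrays Cldn6 and Cldn7 had a Pearson r of 0.94, and 0.77 after group means were removed, over arrays that share scan days and lots.

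From 6 to 12 h 2 of 6 member probe sets passed in controls and 2 with RA, both claudins, against 5.43% and 9.64% of all probe sets (2.78% and 4.53% lower). From 6 to 48 h both claudins fell in both arms. The log2 difference of Cldn6 was -2.46 (SE 0.33, adjusted p = 4.57e-05) in controls and -1.82 (SE 0.35, adjusted p = 0.00125) with RA, and that of Cldn7 was -2.45 (SE 0.36, adjusted p = 0.00013) and -2.13 (SE 0.39, adjusted p = 0.000732). With Krt20, which rose in the RA arm, 2 members passed in controls and 3 with RA, against 9.52% and 11.7% of all probe sets (5.29% and 6.23% lower). From 12 to 24 h and from 24 to 48 h no member passed in either arm in the 8-group fit by limma (the settings that call Krt8 or Krt18 from 24 to 48 h are given above), where 0.0564% (controls) and 0.0161% (RA) of all probe sets passed for the first step and 1.08% and 0.483% for the second. There were 0 members at an unadjusted p below 0.05 from 12 to 24 h, and 2 in controls and 3 with RA from 24 to 48 h. All 6 h arrays were scanned on days of their own, and the 6 h exposure is the one described with an overnight culture before RA. Labelled hours thus need not follow total time in culture. Whether the fall after 6 h belongs to exposure time, that earlier culture, or those days and lots cannot be told apart.

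RA did not change either claudin past the threshold. For Cldn6 RA minus control, in order of time, was -0.65 (SE 0.35), 0.04 (0.35), 0.18 (0.31) and -0.01 (0.33). At 6 h all RA arrays lay below all controls, with 3 arrays in each arm, but the 95% interval ran from -1.38 to 0.08 and held both signs. The share of all probe sets whose arms separate in this way is not given here, so this separation is a description only. For Cldn7 the differences were -0.37 (SE 0.39), -0.31 (0.39), 0.16 (0.34) and -0.05 (0.36), and all 8 adjusted p values were 1. Both claudins were lower with RA in 3 of 3 record pairs at 6 h. At 48 h Cldn7 was higher with RA in 3 of 3 pairs, by 0.07, 0.19 and 0.67, and Cldn6 in 2 of 3. How many of all probe sets lean one way in 3 of 3 pairs is not given here. The RA effect at 48 h minus that at 6 h was 0.64 (SE 0.48) for Cldn6 and 0.32 (SE 0.53) for Cldn7, each with an adjusted p of 1.

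Among the 48 h arrays the claudins did not follow the keratin order of days. Cldn7 was highest on day 2 at 7.10, next on day 9 at 6.05 and 6.72, and lowest on day 4 at 5.11 and 5.17. It was lower on day 4 than on day 1 (-0.80, SE 0.16, adjusted p = 0.00163) and higher on day 9 than on day 4 by 1.25 (SE 0.16, adjusted p = 0.00031). Cldn6 was higher on day 9 than on day 4 by 0.62 (SE 0.18, adjusted p = 0.0306), and Krt8 differed there by 0.22 (SE 0.15, adjusted p = 0.35). On day 2 against day 1 both claudins were higher, Cldn6 by 0.94 (SE 0.23, adjusted p = 0.0373) and Cldn7 by 1.31 (SE 0.20, adjusted p = 0.00219), which rests on the 1 array of day 2. Of the members, 2 of 6 passed on day 2 against day 1 (3.99% of all probe sets), 4 on day 4 against day 1 (35.0%), 3 on day 9 against day 1 (27.0%) and 3 on day 9 against day 4 (15.6%).

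**Figure D4:**
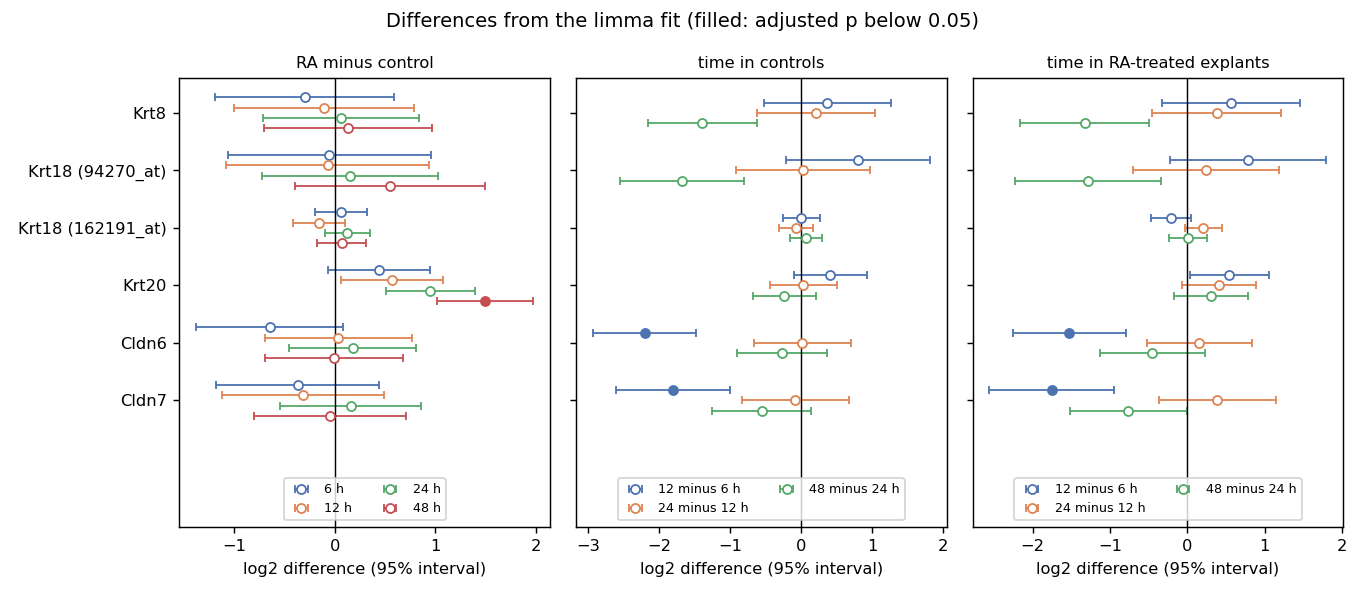
Log2 differences (x axis) of the limma fit with 95% intervals for the 6 member probe sets (y axis): RA minus control at 4 times on the left, steps of time in controls in the middle and in RA-treated explants on the right, filled where the adjusted p was below 0.05. The filled points are Krt20 at 48 h on the left and Cldn6 and Cldn7 from 6 to 12 h in both arms.

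Other claudins and junction genes changed with time in part. Of 7 other claudins 2 fell from 6 to 48 h in each arm. The log2 difference of Cldn4 was -1.38 (SE 0.30, adjusted p = 0.00503) in controls and -1.0 (SE 0.33, adjusted p = 0.046) with RA, and that of Cldn3 was -0.51 (SE 0.11, adjusted p = 0.00487) and -0.52 (SE 0.12, adjusted p = 0.00522). Both are claudins of epithelial barriers, and the median over the other claudins was -0.05 in controls and -0.10 with RA, against 0.07 and 0.06 over all genes. Of 27 junction and adhesion genes, Cldn3 and Cldn4 included, 1 rose and 4 fell in each arm. Epcam, an epithelial adhesion molecule that binds claudin 7, fell as well, with a difference of -1.11 (SE 0.17, adjusted p = 0.000158) in controls and -1.29 (SE 0.18, adjusted p = 5e-05) with RA, and already of -0.78 (SE 0.18, adjusted p = 0.0114) and -1.12 (SE 0.18, adjusted p = 0.000359) from 6 to 12 h. It is a dim probe set that lay below the 25th percentile on 22 of 27 arrays. Desmoplakin (Dsp), which anchors keratin filaments at desmosomes, rose from 6 to 48 h in RA-treated explants by 1.06 (SE 0.27, adjusted p = 0.00974), beside 0.49 (SE 0.25, adjusted p = 0.234) in controls. Plakophilin 2 (Pkp2), another desmosome protein, rose from 6 to 12 h by 1.03 (SE 0.24, adjusted p = 0.0116) in controls and 0.92 (SE 0.24, adjusted p = 0.0156) with RA. Of 27 other keratins 0 passed in either arm by limma from 6 to 12, 12 to 24, 24 to 48 or 6 to 48 h, with 10 in controls and 3 with RA at an unadjusted p below 0.05 from 6 to 48 h.

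Regulators of epithelial identity were measured beside these genes. Tfap2c, a transcription factor of surface ectoderm, fell from 6 to 48 h in controls (-1.55, SE 0.14, adjusted p = 4.53e-07) and with RA (-1.66, SE 0.15, adjusted p = 2.17e-07), and was the 1 of 11 such regulators that fell in either arm. Over the same time Klf4 rose in RA-treated explants by 1.09 (SE 0.36, adjusted p = 0.048), and the difference in controls was of like size, 0.99 (SE 0.33, adjusted p = 0.0638). Klf5, another of these regulators, fell from 6 to 12 h in controls by limma (-1.58, SE 0.44, adjusted p = 0.0336), beside -0.97 (SE 0.44, adjusted p = 0.175) with RA. Of 7 regulators of epithelial to mesenchymal transition 0 passed from 6 to 48 h in either arm by limma, with 2 in each arm at an unadjusted p below 0.05 (1 passed with RA where any probe set of a gene counted). From 6 to 12 h Snai1, a repressor of E-cadherin, fell in controls (-0.59, SE 0.14, adjusted p = 0.0142), beside -0.30 (adjusted p = 0.192) with RA, and Zeb1 rose in RA-treated explants by 0.72 (SE 0.18, adjusted p = 0.0131), beside 0.37 (adjusted p = 0.302) in controls. Neural crest markers fell in 6 of 13 cases in each arm from 6 to 48 h, and surface ectoderm markers in 3 of 10 in controls and 2 of 10 with RA. Neural tube markers fell in 3 of 11 cases in controls and 6 of 11 with RA, among them Sox2 (-1.98, SE 0.39, adjusted p = 0.00172, and -3.15, SE 0.41, adjusted p = 2.44e-05). From 6 to 12 h, the step at which the claudins fell, 2 of 8 endothelium markers rose in each arm. Eng rose by 1.30 (SE 0.32, adjusted p = 0.0155) in controls and 1.53 (SE 0.32, adjusted p = 0.00316) with RA. Tek, below the 25th percentile on 17 arrays, rose by 1.05 (SE 0.27, adjusted p = 0.0239) and 1.06 (SE 0.27, adjusted p = 0.0146). The list did not move one way. Group means of Flt1 went from 7.32 to 6.90 in controls and from 7.16 to 6.88 with RA. Those of Pecam1 went from 7.42 to 7.18 and from 7.42 to 7.15. Means of Kdr and Cldn5 were higher at 12 h in both arms, and those of Cdh5 and Tie1 in controls only. The part of changing cell numbers in these levels was not tested.

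The genes whose levels were most like those of the members over the 27 arrays were found by Pearson r, as a description over arrays that share lots, days and exposure times. Beside each other, Krt8 and Krt18 were most like Bex1 (r of 0.89 and 0.90), and Krt8 next like Krt7 (0.87) and Krt18 next like Mdh2 (0.88). With group means removed Krt7 and Krt8 had an r of 0.92. Krt20 was most like Dhrs3 (0.87), Cyp26a1 (0.83) and St3gal1 (0.79), and these fell to 0.64, 0.26 and 0.37 with group means removed. Beside Cldn7, Cldn6 was most like Psmb7 (0.91) and Mlf2 (0.90), and beside Cldn6, Cldn7 was most like Epcam (0.91) and Cyba (0.90). Krt20 and the claudins were not alike, with an r of -0.40 to Cldn6 and -0.35 to Cldn7.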

How the data were processed

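Transcript levels of 27 arrays were taken from the deposited table. Per the labels' protocols the authors normalised the arrays with RMA Express 0.2, and GeneSpring served later analysis, so the deposited intensity values are RMA summaries on a linear scale (3.92 to 17003), and log2 was taken once. Array medians lay between 92.1 and 100.5. RMA gives no detection call and compresses differences between dim probe sets, and precision is limited by how many arrays there are. Of 12488 probe sets 66 control probe sets were left out.

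Groups followed the titles. The package limma 3.58.1 (R 4.3.3) fitted 1 model over the 8 groups (19 residual degrees of freedom), two-sided, with Benjamini-Hochberg adjustment over 12422 probe sets and a threshold of 0.05, and differences are log2 values with SE. Scan days at 48 h were tested in a model of their own. The fit was checked on simulated data with errors drawn independently for each array. That check does not cover likeness between arrays of a scan day or pair. Equal replicate numbers were read as pairs at 6 h (correlation of deviations 0.45 to 0.47) and 24 h (0.23 to 0.62), and not at 12 h (-0.05 to 0.26) or 48 h (-0.31 to 0.67), where the record pairs of the scanner records correlated at 0.67 to 0.73. Other genes were named by their list and a rule: up to 4 called genes with the largest change per comparison, or the largest change where none was called. Each gene was represented by its probe set with the highest mean. Members, lists and tests were chosen with earlier results of these data known. Promoter motifs were matched by exact letters. Python 3.11.15, pandas 2.3.3 and matplotlib 3.10.9 made the tables and plots.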

Additional observations from a re-analysis of the deposited data

How the results depend on the processing

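The number of member probe sets past the threshold stayed within 1.5 times its value under most alternatives, which were other blocks, median centring, cyclic loess, a filter on the 30% dimmest probe sets, an intensity trend, fewer arrays in the fit and the other label of 48 h control 3. The exceptions follow. For RA at 24 h the number rose from 0 to 1 with the replicate block and with blocks for scan day and record pair, and without scan day 9, and ran from 0 to 1 when single arrays were left out, reaching 1 without 48 h RA 1 or 48 h RA 3. For RA at 48 h it fell from 1 to 0 with the 48 h arrays alone in the fit, and with control 3 grouped as RA. For the change over time with RA it rose from 3 to 5 with the RA arrays alone and without scan day 1, and ran from 3 to 5 when single arrays were left out. For the difference of the RA effect between times it rose from 0 to 1 with record pair as a block. For the RA effect at 48 h minus that at 6 h it rose from 0 to 1 with scan day and with record pair as a block. From 24 to 48 h in controls it rose from 0 to 1 without the dimmest probe sets and with the intensity trend, to 2 without scan day 1, and ran from 0 to 2 when single arrays were left out. From 24 to 48 h with RA it rose from 0 to 2 with control 3 grouped as RA and without scan day 1, and ran from 0 to 1 when single arrays were left out. From 6 to 12 h with RA it rose from 2 to 4 with the arrays compared alone in the fit. No called value reversed its direction, and the replicate block changed no other call. The scan day as a random block, the fits without scan day 1, 4 or 9 and the 27-array spread for scan days were chosen after seeing the data. With that spread the scan-day call of Cldn6 was lost, and that of Krt20 was lost without the RA term or with control 3 grouped as RA. A scan-day test on the 48 h controls alone was not run, because no scan day held more than 1 of them. With every probe set that names 1 gene, in place of the brightest, 11 of 130 list counts (RA comparisons, 6 to 12 h, 6 to 48 h and scan days) rose, none of them in an RA comparison. Depth in the sense of read counts does not apply to arrays. The dim Krt18 probe set and Epcam lie where RMA compresses differences.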
